A study of Mus musculus with 16 samples.

Results

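The genes described here are 9 genes known for their induction by glucocorticoids: Fkbp5, Sult1a1, Map3k6, Sgk1, Tsc22d3, Zbtb16, Pdk4, Plin4 and Errfi1. Each was taken as the probe set whose single gene symbol in the platform annotation was that gene. All 9 had exactly 1 such probe set, so they stand for 9 of the 19938 genes tested. Whole brains of male mice aged 8 weeks were profiled with Affymetrix gene-level arrays, which measure transcripts with probe sets spread over their exons. There were 4 groups of 4 arrays: arrays labelled TNF knockout 24 h after permanent middle cerebral artery occlusion (pMCAO, a model of ischaemic stroke), arrays labelled TNF knockout from naive mice, C57BL/6 arrays 24 h after pMCAO, and C57BL/6 arrays from naive mice. The naive mice had no operation, and no sham-operated group was analysed here, so ischaemia and surgery, with its anaesthesia and handling, cannot be told apart. The labels name neither the knockout allele nor whether each array came from a separate animal, so p-values measure the spread between these arrays, which may be technical.

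Tnf checks the genotype label, and it went against it. Tnf was at 6.75, 6.60, 6.99 and 6.88 on the stroke arrays labelled TNF knockout, and at 5.64, 5.28, 5.67 and 5.68 on the C57BL/6 stroke arrays, in the deposited log2 units. On naive arrays it was at 6.14, 6.46, 6.47 and 6.58 under the knockout label and at 5.01, 5.72, 5.08 and 5.41 in C57BL/6. Every array labelled TNF knockout was above every C57BL/6 array, by 1.24 ± 0.14 log2 after stroke (SE, adjusted p = 0.00010, limma) and by 1.11 ± 0.14 in naive mice (adjusted p = 0.00056). No label says whether this probe set lies in a deleted stretch, so the groups are named by their label throughout. Array medians were 6.01 to 6.05 and arrays of a group correlated at 0.991 to 0.996, and no 2 arrays held identical values. All C57BL/6 sample names begin with KL42, whereas those of the knockout label begin with KL76 or KL82, so name prefix and genotype label cannot be told apart.

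Glucocorticoids, of which corticosterone is the main one in mice, bind the glucocorticoid receptor Nr3c1. The receptor waits in the cytoplasm with heat shock chaperones, moves to the nucleus once bound, and there activates genes through glucocorticoid response elements, inverted repeats of a short arm separated by a spacer. In brain the genes it induces are found in astrocytes, oligodendrocytes, endothelium and neurons, and stress or a systemic illness raises many of them.

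The promoters show which of these genes carry such an element close to a start site. Windows from 250 bases before to 50 bases after each annotated start were available for 8 of the 9 genes, 16 windows in all, from RefSeq on GRCm38.p6, and Zbtb16 was not among them. The searched letters were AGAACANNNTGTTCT for the full element, AGAACA for one arm of it and AGGTCANAGGTCA for a direct repeat bound by PPAR receptors, on both strands. The full element contains the arm on each strand. The full element was in 3 of 32851 windows of all genes (0.00913%), the arm in 6233 (19%) and the direct repeat in 13 (0.0396%). Among the windows of the 9 genes, the full element was in 1, an upstream start of Sgk1, the arm was in 5 of 16, and the direct repeat was in 0. The promoters of 5 genes are printed from 5′ to 3′ on the strand of the gene, with every match in capitals: that of Sgk1 because it holds the full element, and those of Fkbp5, Sult1a1, Map3k6 and Plin4 because these genes were called after stroke.
Sgk1, chr10:21993640-21993939, plus strand: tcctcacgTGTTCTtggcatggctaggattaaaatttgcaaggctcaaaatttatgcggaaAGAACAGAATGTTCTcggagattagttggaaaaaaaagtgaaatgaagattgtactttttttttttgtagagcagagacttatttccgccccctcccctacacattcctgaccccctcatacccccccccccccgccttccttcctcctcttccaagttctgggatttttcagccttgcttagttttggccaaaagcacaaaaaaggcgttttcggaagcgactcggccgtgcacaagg
Sult1a1, chr7:126676369-126676668, minus strand: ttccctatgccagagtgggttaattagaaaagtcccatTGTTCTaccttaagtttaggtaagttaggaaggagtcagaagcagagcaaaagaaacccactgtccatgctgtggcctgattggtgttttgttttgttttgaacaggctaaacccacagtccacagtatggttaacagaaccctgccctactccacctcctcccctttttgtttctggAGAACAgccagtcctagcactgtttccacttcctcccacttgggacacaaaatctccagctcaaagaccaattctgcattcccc
Fkbp5, chr17:28486100-28486399, minus strand: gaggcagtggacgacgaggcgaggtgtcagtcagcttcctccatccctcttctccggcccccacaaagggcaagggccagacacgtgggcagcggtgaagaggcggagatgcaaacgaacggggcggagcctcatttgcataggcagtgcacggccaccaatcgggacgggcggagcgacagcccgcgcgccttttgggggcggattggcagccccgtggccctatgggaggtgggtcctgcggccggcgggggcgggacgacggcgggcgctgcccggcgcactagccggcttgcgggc
Map3k6, chr4:133240568-133240867, plus strand: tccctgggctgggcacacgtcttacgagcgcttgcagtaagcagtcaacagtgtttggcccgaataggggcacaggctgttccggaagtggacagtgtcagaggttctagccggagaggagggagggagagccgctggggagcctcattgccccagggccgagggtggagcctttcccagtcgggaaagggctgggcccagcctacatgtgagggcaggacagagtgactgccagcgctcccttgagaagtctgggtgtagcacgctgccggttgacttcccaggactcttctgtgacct
Plin4, chr17:56109733-56110032, minus strand: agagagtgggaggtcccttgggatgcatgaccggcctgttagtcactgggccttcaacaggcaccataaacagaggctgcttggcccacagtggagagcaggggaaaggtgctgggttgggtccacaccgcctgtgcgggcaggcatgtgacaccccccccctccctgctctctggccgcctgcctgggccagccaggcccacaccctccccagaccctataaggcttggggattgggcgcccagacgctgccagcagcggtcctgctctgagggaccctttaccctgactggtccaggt
In the Sgk1 window the full element begins 189 bases before the start and a further arm begins 242 bases before it. Sult1a1 has single arms at 212 and 34 bases before its start. The windows of Fkbp5, Map3k6 and Plin4 held none of the searched letters, which says only that they are not in these stretches.

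Averaged over both genotype labels, 4 of the 9 genes were higher 24 h after pMCAO than in naive brain and 0 were lower, where 1.78% of all 19938 genes were called higher and 1.03% lower by limma (adjusted p under 0.05). These were Map3k6 at 1.40-fold, Plin4 at 1.37-fold, Sult1a1 at 1.36-fold and Fkbp5 at 1.25-fold. The values of 8 of the 9 genes were above 0, as were 48.9% of all genes, and the median log2 change was 0.28, against -0.0025 over all genes. Zbtb16 was the one below 0. The 9 genes were chosen with earlier results of these data known, so the shares over all genes are a description, not a test of an excess. All stroke arrays were above all naive arrays for 4 genes under the knockout label (Fkbp5, Map3k6, Sgk1 and Plin4, against 2.8% of all genes) and for 3 genes in C57BL/6 (Fkbp5, Sult1a1 and Errfi1, against 5.03%). Fewer cells of a type and less RNA per cell cannot be told apart in bulk tissue such as this.

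**Figure D1:**
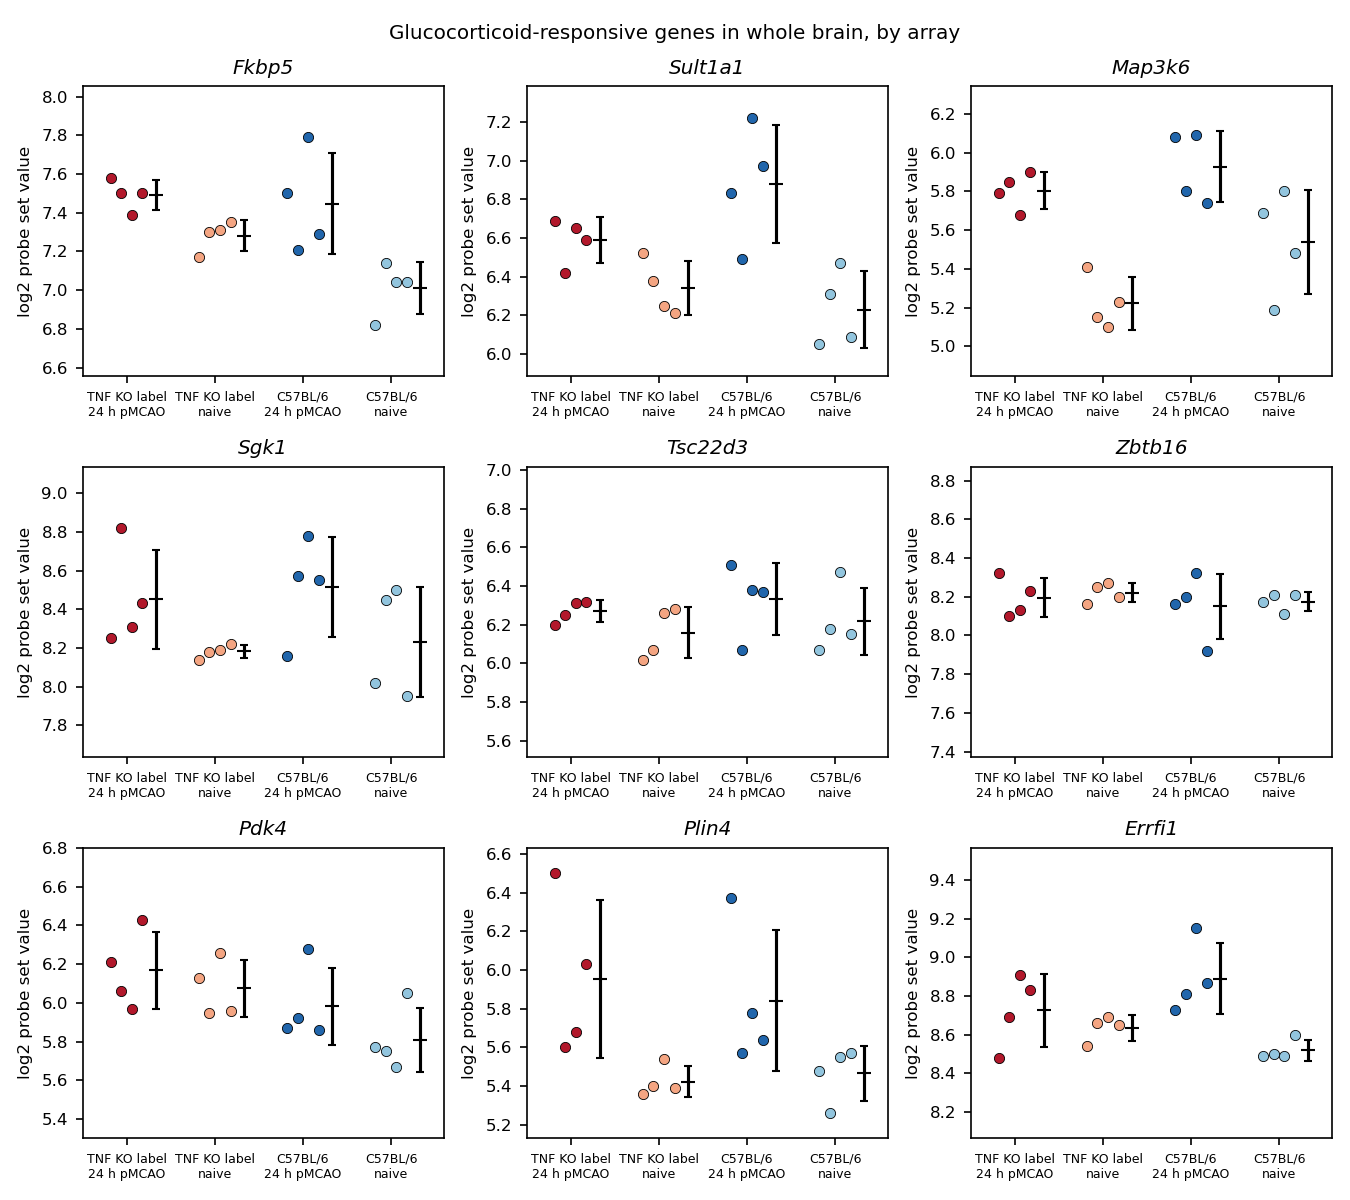
Deposited log2 value (vertical axis) of each of the 9 genes on every array, with arrays labelled TNF knockout left of C57BL/6 and stroke left of naive; points are arrays and the bars beside them are the mean ± SD of 4 arrays. Fkbp5 on stroke arrays lies above the naive arrays of its own label in both labels.

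Fkbp5 is a co-chaperone that lowers the affinity of the receptor for its hormone, a short feedback loop on the receptor itself (chromosome 17, 28398753 to 28486149, GRCm38.p6). It was at 7.58, 7.50, 7.39 and 7.50 on stroke arrays labelled TNF knockout, and at 7.17, 7.30, 7.31 and 7.35 on naive arrays of that label. In C57BL/6 it was at 7.50, 7.21, 7.79 and 7.29 on stroke arrays and at 6.82, 7.14, 7.04 and 7.04 on naive arrays. The groups did not overlap in either label. Fkbp5 was the 1 gene of the 9 higher on every stroke array in both labels, which held for 0.667% of all genes (133). The stroke change was 0.21 ± 0.11 log2 under the knockout label (SE, adjusted p = 0.63, limma), 0.44 ± 0.11 in C57BL/6 (adjusted p = 0.0406) and 0.32 ± 0.07 averaged over both (adjusted p = 0.0203). The C57BL/6 call was lost in 10 of the 16 fits without 1 array, 4 of them without a C57BL/6 naive array (adjusted p = 0.0512 to 0.125) and the rest without C57BL/6 stroke arrays 1 or 3, naive arrays 2 or 3 of the knockout label or stroke arrays 2 or 4 of that label. Without C57BL/6 stroke array 3 it was 0.32 (adjusted p = 0.133). The averaged call was lost only without naive array 1 of the knockout label (adjusted p = 0.0526). With the sample name prefix as a term it was 0.33 (adjusted p = 0.0518). The stroke change under the knockout label was 0.32 within KL76 (1 stroke and 3 naive arrays) and 0.11 within KL82 (3 stroke arrays and 1 naive array).

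Map3k6, Sgk1 and Errfi1 encode signalling proteins. Map3k6 is a MAP kinase kinase kinase of stress signalling (chromosome 4, 133237979 to 133252929). Its values were 5.79, 5.85, 5.68 and 5.90 on stroke arrays labelled TNF knockout and 5.41, 5.15, 5.10 and 5.23 on naive arrays of that label, with no overlap. In C57BL/6 they were 6.08, 5.80, 6.09 and 5.74 on stroke arrays and 5.69, 5.19, 5.80 and 5.48 on naive arrays, where naive array 3 reached the level of the lower stroke arrays. The change was 0.58 ± 0.12 log2 under the knockout label (adjusted p = 0.0210, limma), the only one of the 9 genes called there, where 0.537% of all genes were called higher. It was 0.39 ± 0.12 in C57BL/6 (adjusted p = 0.105) and 0.49 ± 0.08 averaged (adjusted p = 0.00208, rank 113 of all genes by p). Under the knockout label the change was 0.57 within KL76, with 1 stroke array, and 0.58 within KL82, with 1 naive array. With the prefix as a term its adjusted p was 0.103. That call was also lost without naive arrays 2, 3 or 4 or stroke arrays 1, 2 or 4 of the knockout label, with changes of 0.54 to 0.59 and adjusted p = 0.0505 to 0.0876. The averaged call held in all 16 fits without 1 array.

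Sgk1, a kinase that raises the activity of ion channels and transporters, partly by restraining the ubiquitin ligase Nedd4l, lies on chromosome 10 (21882184 to 21999903) and has the promoter with the full element. It was at 8.25, 8.82, 8.31 and 8.43 on stroke arrays labelled TNF knockout, against 8.14, 8.18, 8.19 and 8.22 on naive arrays of that label. In C57BL/6 the stroke arrays were at 8.16, 8.57, 8.78 and 8.55, against 8.02, 8.45, 8.50 and 7.95 on naive arrays. The groups were apart under the knockout label and overlapped in C57BL/6. The averaged change was 0.28 ± 0.10 (95% confidence interval 0.07 to 0.49, adjusted p = 0.161, limma), so the one gene with the full element in these windows did not pass the threshold, and neither label alone did.

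Errfi1, an inhibitor of the EGF receptor that growth factors and stress also induce, lies on chromosome 4 (150853796 to 150868889). Under the knockout label its values were 8.48, 8.69, 8.91 and 8.83 on stroke arrays and 8.54, 8.66, 8.69 and 8.65 on naive arrays, which overlapped. In C57BL/6 they were 8.73, 8.81, 9.15 and 8.87 on stroke arrays and 8.49, 8.50, 8.49 and 8.60 on naive arrays, with no overlap. The change was 0.09 ± 0.10 under the knockout label (adjusted p = 0.89, limma), 0.37 ± 0.10 in C57BL/6 (adjusted p = 0.0606) and 0.23 ± 0.07 averaged (95% confidence interval 0.09 to 0.38, adjusted p = 0.0803). Several other settings put it past the threshold in C57BL/6, with adjusted p = 0.0215 to 0.0472, and it passed as well without stroke array 1 of the knockout label (adjusted p = 0.0415) or stroke array 1 of C57BL/6 (0.0302). The averaged change passed under the same settings, without the dimmest genes (adjusted p = 0.0457), with trended and robust variances (0.0404), with array weights (0.0300) and with the replicate block (0.0318), and without stroke array 1 of the knockout label (0.0268) or of C57BL/6 (0.0488).

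Sult1a1, Pdk4 and Plin4 act in metabolism. Sult1a1, a sulfotransferase that conjugates phenols (chromosome 7, 126672865 to 126690443), was at 6.69, 6.42, 6.65 and 6.59 on stroke arrays labelled TNF knockout and at 6.52, 6.38, 6.25 and 6.21 on naive arrays of that label. In C57BL/6 it was at 6.83, 6.49, 7.22 and 6.97 on stroke arrays and at 6.05, 6.31, 6.47 and 6.09 on naive arrays. The C57BL/6 groups were narrowly apart and those of the knockout label overlapped. The change was 0.25 ± 0.13 log2 under the knockout label (adjusted p = 0.64, limma) and 0.65 ± 0.13 in C57BL/6 (adjusted p = 0.0126), where Sult1a1 and Fkbp5 were the 2 of 9 genes called and 1.34% of all genes were called higher. Averaged over both it was 0.45 ± 0.09 (adjusted p = 0.00817). The averaged call held in all 16 fits without 1 array. The C57BL/6 call was lost without naive array 1 (0.59, adjusted p = 0.0520) or stroke array 3 (0.53, adjusted p = 0.0577) of C57BL/6. Within prefixes the change under the knockout label was 0.31 in KL76, with 1 stroke array, and 0.34 in KL82, with 1 naive array.

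Plin4 coats lipid droplets and is known mainly from adipocytes and muscle (chromosome 17, 56100587 to 56109948). It was at 6.50, 5.60, 5.68 and 6.03 on stroke arrays labelled TNF knockout and at 5.36, 5.40, 5.54 and 5.39 on naive arrays of that label. In C57BL/6 it was at 6.37, 5.57, 5.78 and 5.64 on stroke arrays and at 5.48, 5.26, 5.55 and 5.57 on naive arrays. Stroke array 1 of each label stood above the other stroke arrays, and in C57BL/6 stroke array 2 equalled the highest naive array. The change was 0.45 ± 0.12 averaged (adjusted p = 0.0465, limma), 0.53 ± 0.17 under the knockout label (adjusted p = 0.28) and 0.38 ± 0.17 in C57BL/6 (adjusted p = 0.27). The averaged call held in 4 of the 16 fits without 1 array, with adjusted p = 0.0244 to 0.0973 over all of them. It was lost with every probe set of the table tested (adjusted p = 0.0696). It was kept without C57BL/6 stroke arrays 2 or 4 and stroke arrays 2 or 3 of the knockout label, and lost without any of the other 12 arrays. It was 0.36 without stroke array 1 of the knockout label (adjusted p = 0.0657) and 0.36 without stroke array 1 of C57BL/6 (adjusted p = 0.0633). Within prefixes the change under the knockout label was 1.07 in KL76, with 1 stroke array, and 0.38 in KL82, with 1 naive array. Adipocyte and fibroblast markers had array means of 5.59 to 5.78 on stroke arrays and 5.60 to 5.66 on naive arrays of the knockout label, and of 5.57 to 5.81 on stroke arrays and 5.58 to 5.76 on naive arrays of C57BL/6, and 0 of 10 were called in the averaged comparison.

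Pdk4 phosphorylates and inhibits pyruvate dehydrogenase, which spares glucose (chromosome 6, 5483351 to 5496278). Its values ran from 5.97 to 6.43 on stroke arrays and 5.95 to 6.26 on naive arrays labelled TNF knockout, and from 5.86 to 6.28 on stroke arrays and 5.67 to 6.05 on naive arrays of C57BL/6, with overlap in both labels. The averaged change was 0.13 (95% confidence interval -0.04 to 0.31, adjusted p = 0.459, limma).

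The transcriptional regulators Tsc22d3 and Zbtb16 did not pass the threshold in any comparison. Tsc22d3, or GILZ, binds and restrains NF-kB and AP-1 (chromosome X, 140539528 to 140600522). It was at 6.20 to 6.32 on stroke arrays and 6.02 to 6.28 on naive arrays labelled TNF knockout, and at 6.07 to 6.51 on stroke arrays and 6.07 to 6.47 on naive arrays of C57BL/6. The averaged change was 0.11 (95% confidence interval -0.04 to 0.26, adjusted p = 0.463, limma). Zbtb16, the zinc finger transcription factor PLZF (chromosome 9, 48651797 to 48836225), was at 8.10 to 8.32 on stroke arrays and 8.16 to 8.27 on naive arrays of the knockout label, and at 7.92 to 8.32 on stroke arrays and 8.11 to 8.21 on naive arrays of C57BL/6. Its averaged change was -0.025 (95% confidence interval -0.15 to 0.10, adjusted p = 0.886). Group membership held 7.61% of the variance of Zbtb16 over the 16 arrays and 20.6% of that of Tsc22d3, against 74.6% for Map3k6, 66.7% for Sult1a1 and 66.1% for Fkbp5. These shares are not corrected for the number of groups, so part of each arises from the spread between arrays alone.

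**Figure D2:**
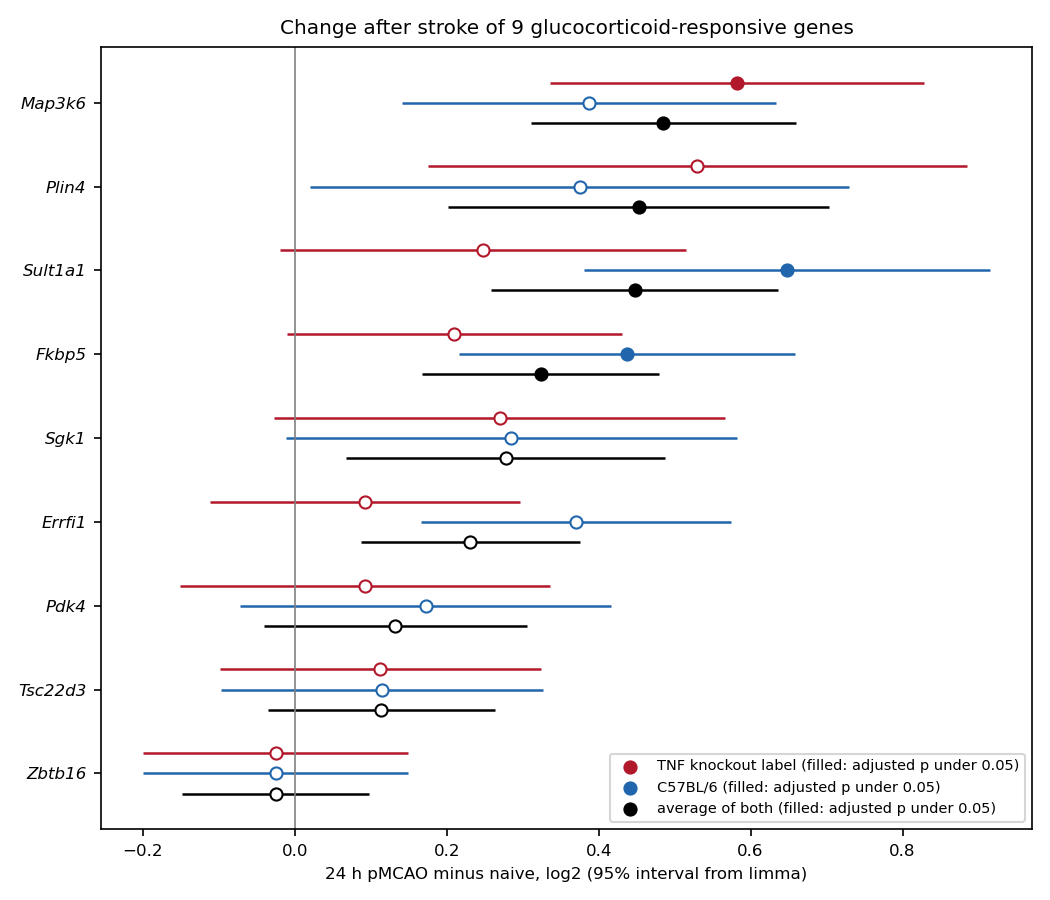
Log2 change of each of the 9 genes after stroke (horizontal axis) with its 95% confidence interval, under the TNF knockout label and in C57BL/6, from the limma fit. Sult1a1 is at 0.25 under the knockout label and 0.65 in C57BL/6, and Map3k6 at 0.58 and 0.39.

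The labels were then compared with each other. 0 of the 9 genes were called between arrays labelled TNF knockout and C57BL/6 arrays, naive or after stroke, where 0.386% and 0.436% of all genes were called by limma, and 0 in the difference of the stroke changes, where 0% of all genes were. At an unadjusted p under 0.05 there were 3 of 9 in naive brain (16.6% of all genes), 1 after stroke (11.3%) and 1 for the difference (7.42%). In naive brain Fkbp5 was 0.27 ± 0.11 log2 higher under the knockout label (adjusted p = 0.209), with no overlap of the groups, which held in that direction for 4.5% of all genes. Map3k6 was at -0.32 ± 0.12 (adjusted p = 0.190) and Pdk4 at 0.27 ± 0.12 (adjusted p = 0.264) in the same comparison. After stroke Sult1a1 was at -0.29 ± 0.13 (adjusted p = 0.399). The difference of the stroke changes was -0.40 ± 0.18 for Sult1a1 (95% confidence interval -0.78 to -0.02, unadjusted p = 0.039, adjusted p = 0.655), so a smaller response under the knockout label was not shown. It was -0.23 ± 0.15 for Fkbp5, -0.28 ± 0.14 for Errfi1, 0.20 ± 0.17 for Map3k6 and 0.16 ± 0.24 for Plin4, with adjusted p = 0.677 to 0.897. Fkbp5 and Plin4 lie on the chromosome of Tnf, 6.80 and 20.9 Mb away. The stretch around a targeted allele can keep the strain of origin, and whether it does here was not tested.

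**Figure D3:**
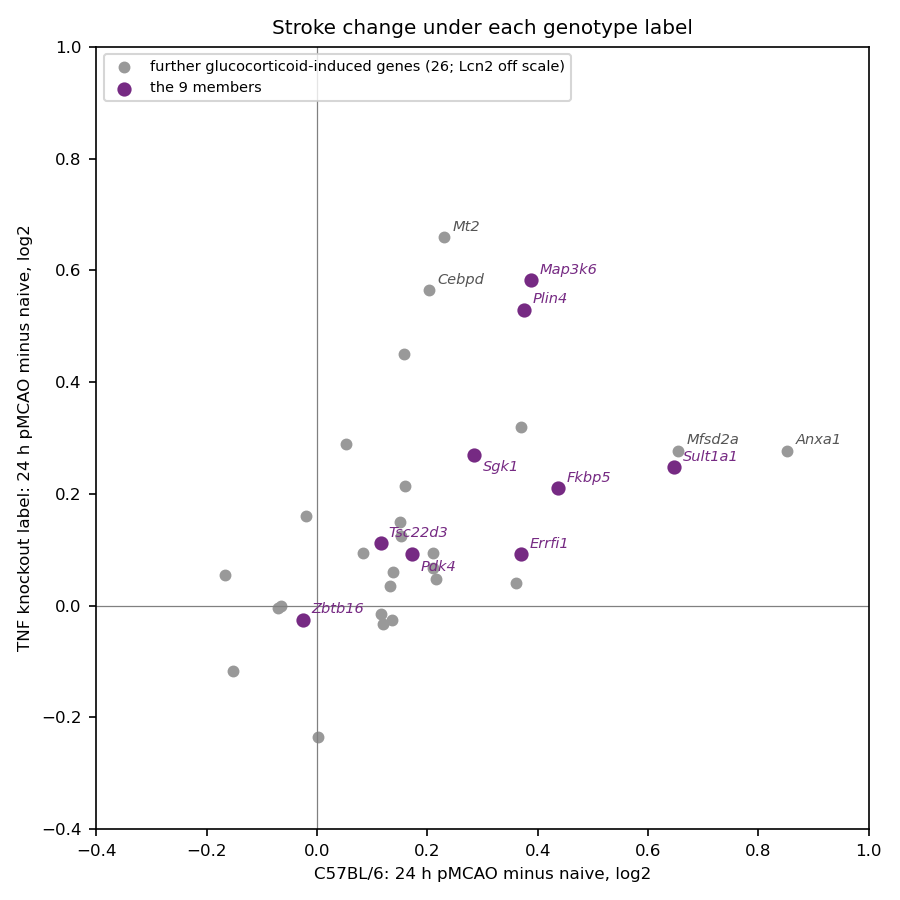
Stroke change under the TNF knockout label (log2) against stroke change in C57BL/6 (log2), both from the limma fit. Shown are the 9 genes and the further list of glucocorticoid-induced genes, without Lcn2, which is off the scale. The 2 changes use separate arrays, and 8 of the 9 genes lie above 0 in each.

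Stroke arrays differed among themselves in how high these genes were. Over the 9 genes, the mean deviation of an array from each gene's own mean over 16 arrays was 0.05 to 0.19 on stroke arrays and -0.14 to -0.08 on naive arrays labelled TNF knockout, and 0.01 to 0.36 on stroke arrays and -0.23 to -0.05 on naive arrays of C57BL/6. The highest was C57BL/6 stroke array 3, where all 9 genes were above their own mean, as on stroke array 4 of the knockout label, and which was the highest array for Fkbp5, Sult1a1, Map3k6 and Errfi1 and shared the highest value of Zbtb16 with stroke array 1 of the knockout label. That array also had the highest Lcn2, at 8.44 against 6.68 to 7.29 on the other C57BL/6 stroke arrays, and the highest array mean of neutrophil and monocyte markers, at 4.46. Stroke array 1 of the knockout label was nearly as high in both, with Lcn2 at 8.30 and a marker mean of 4.44, while its mean deviation over the 9 genes was 0.16, below the 0.19 of stroke array 4 of that label. Their part in the result was not tested.

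**Figure D4:**
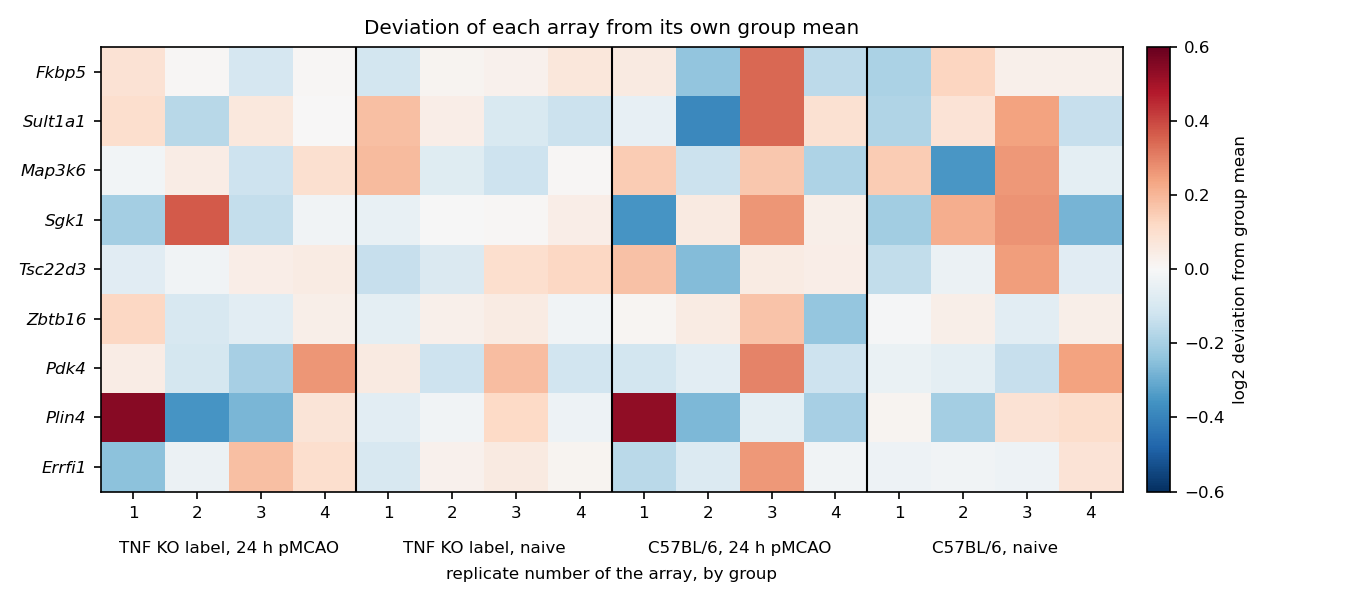
Deviation from the group mean (log2) of each of the 9 genes on each array, arrays labelled TNF knockout before C57BL/6 and stroke before naive. C57BL/6 stroke array 3 is above its group mean for 8 of the 9 genes.

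The question whether the 9 genes vary together among arrays of a group was put to each pair. Over the 36 pairs, with each gene taken as its deviation from the group mean on 16 arrays, r was above 0 in 28, ran from -0.61 to 0.59 and had a median of 0.24. In an exact two-sided permutation of arrays within groups, 0 pairs passed the adjusted threshold by Pearson or Spearman. At an unadjusted p under 0.05 there were 0 by Pearson and 1 by Spearman, Zbtb16 with Pdk4. Its rho was 0.68 (p = 0.0129, adjusted p = 0.465, exact permutation) and its r was 0.59 (p = 0.0556, adjusted p = 0.808, exact permutation). This r was 0.47 without the 2 arrays farthest from the median of Zbtb16. Fkbp5 and Sult1a1 had r = 0.55 (p = 0.155 in the exact permutation), so no relation was shown. Their r was 0.0085 without the 2 arrays farthest from the median of Fkbp5. Of all other genes, Adgrg2 (r = 0.87), Gm10602 (0.85), Prg4 (0.84), Zbtb11os1 (0.84) and Xrra1 (0.82) tracked the mean standardised deviation of the 9 genes most closely over 16 arrays. These r are a description of arrays that share 4 groups and 1 platform, and they were 0.76, 0.63, 0.64, 0.65 and 0.61 without C57BL/6 stroke arrays 2 and 3.

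Other genes of the pathway gave the setting. Among the receptor and its chaperones and cofactors, 0 of 15 measured genes (of 18 listed) were called in any stroke comparison by limma, and 1 of 15 had an unadjusted p under 0.05 in the averaged one, against 16.4% of all genes. Nr3c1, the receptor itself, changed by -0.07 ± 0.05 log2 (95% confidence interval -0.17 to 0.03, adjusted p = 0.533) and Nr3c2, the mineralocorticoid receptor, by -0.025 ± 0.07 (adjusted p = 0.908). Fkbp4, the co-chaperone that opposes Fkbp5, was at -0.05 ± 0.08 (adjusted p = 0.806). Nr3c1 was at 8.26 to 8.43 on stroke arrays and 8.45 to 8.54 on naive arrays labelled TNF knockout. That change was -0.17 ± 0.07 (adjusted p = 0.507, limma). In C57BL/6 it was at 8.27 to 8.45 and at 8.29 to 8.43, a change of 0.03 ± 0.07 (adjusted p = 0.878). Between labels in naive brain it was at 0.15 ± 0.07 (adjusted p = 0.286). After stroke 1 of the 15 genes was above 0 under the knockout label and 10 in C57BL/6, against 49.3% and 48.3% of all genes. Among the genes of glucocorticoid metabolism and transport, 0 of 6 were called in any comparison by limma, and 0 in the averaged comparison and 1 under the knockout label had an unadjusted p under 0.05. Hsd11b1, the enzyme that regenerates active hormone inside cells, was at -0.17 ± 0.13 under the knockout label and 0.215 ± 0.13 in C57BL/6 (adjusted p = 0.811 and 0.403). Its average was 0.02 ± 0.09 (adjusted p = 0.938), and the difference of its changes was -0.39 ± 0.18 (unadjusted p = 0.0444, adjusted p = 0.669).

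Of 27 measured genes in a further list of glucocorticoid-induced genes, 5 were called higher and 0 lower in the averaged comparison by limma. Over all genes 1.78% were called higher and 1.03% lower. This list too was chosen with earlier results of these data known. The change was above 0 for 22 of 27, with a median of 0.14 against -0.0025 over all genes. Below 0 and uncalled were Klf9 (-0.135), Tgfbr1 (-0.116), Dusp1 (-0.056), Crispld2 (-0.0375) and Cdkn1c (-0.0325). The call was in both labels for Lcn2, an iron-binding acute phase protein that inflammatory signals also induce, which averaged 7.44 on stroke arrays and 4.115 on naive arrays labelled TNF knockout, and 7.355 on stroke arrays and 4.35 on naive arrays of C57BL/6 (adjusted p = 5.76e-06 and 3.62e-05, limma). Cebpd, a transcription factor of the acute phase response, was 0.57 ± 0.10 higher under the knockout label (adjusted p = 0.00405) and 0.38 averaged (adjusted p = 0.00241). In C57BL/6 its change was 0.20 ± 0.10 (adjusted p = 0.285). Mt2, a metal-binding protein, was 0.66 ± 0.14 higher under the knockout label (adjusted p = 0.0324) and 0.45 averaged (adjusted p = 0.0175), and with the prefix as a term those adjusted p were 0.171 and 0.0613. The first Mt2 call was also lost without naive arrays 1, 2 or 3 or stroke arrays 1, 2 or 3 of the knockout label, with adjusted p = 0.0656 to 0.154. In C57BL/6 the change of Mt2 was 0.23 ± 0.14 (adjusted p = 0.425). Anxa1, a mediator of anti-inflammatory glucocorticoid action, was 0.85 ± 0.15 higher in C57BL/6 (adjusted p = 0.00462) and 0.57 averaged (adjusted p = 0.00353). Under the knockout label its change was 0.28 ± 0.15 (adjusted p = 0.654). Mfsd2a, a lipid transporter of brain endothelium, was 0.66 ± 0.12 higher in C57BL/6 (adjusted p = 0.00586) and 0.47 averaged (adjusted p = 0.00240). Under the knockout label its change was 0.28 ± 0.12 (adjusted p = 0.495). No difference between the labels was called for the stroke changes of Lcn2, Cebpd, Mt2, Anxa1 and Mfsd2a (adjusted p = 0.583 to 0.880, limma). For Anxa1, Cebpd, Mfsd2a and Mt2 its unadjusted p was 0.0118, 0.0143, 0.0321 and 0.0453, where 7.42% of all genes were under 0.05. Against naive C57BL/6 arrays, naive arrays of the knockout label were at 0.52, -0.28, 0.23 and -0.61 for these genes (adjusted p = 0.0676 to 0.328). After stroke the same comparison gave -0.05, 0.08, -0.15 and -0.18 (adjusted p = 0.670 to 0.930).

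A minority of cell type markers passed the threshold after stroke, and their part in the results on the 9 genes was not tested. Averaged over both labels, 2 of 11 astrocyte markers (Gfap at 0.77 and Gjb6 at 0.33 log2), 2 of 11 microglia and macrophage markers (Cd68 at 0.84 and Fcrls at 0.68) and 3 of 14 neutrophil and monocyte markers (Clec4d at 0.75, Cxcr2 at 0.71 and Il1r2 at 0.41) were higher. Slc2a1 was higher among 11 endothelial markers at 0.28, a call that held in 4 of 16 fits without 1 array. The Gjb6 call was lost without C57BL/6 naive array 1, C57BL/6 stroke array 3 or stroke array 3 of the knockout label (adjusted p = 0.0562, 0.0591 and 0.0512). Siglech of microglia (-0.47), Tubb3 of neurons (-0.27) and Rgs5 of pericytes (-0.37) were lower, as 1 of 11, 1 of 12 and 1 of 12 markers. Over all genes 1.78% were called higher and 1.03% lower. Above 0 were 6 of 11 astrocyte, 6 of 11 microglial, 10 of 14 neutrophil and monocyte and 5 of 11 endothelial markers. Their medians were 0.0175, 0.03, 0.14 and -0.034. Of neuronal and pericyte markers 3 of 12 and 2 of 12 were above 0 (medians -0.051 and -0.12), against 48.9% of all genes. The mean of the neutrophil and monocyte markers was 4.17 to 4.44 on stroke arrays and 3.98 to 4.03 on naive arrays labelled TNF knockout, and 4.10 to 4.46 on stroke arrays and 4.05 to 4.20 on naive arrays of C57BL/6. Astrocyte markers had array means of 9.64 to 9.66 on stroke arrays and 9.55 to 9.74 on naive arrays under the knockout label, and of 9.61 to 9.80 and 9.57 to 9.66 in C57BL/6. Oligodendrocyte and choroid plexus markers had 0 of 11 and 0 of 10 called, with 2 and 1 at an unadjusted p under 0.05, against 16.4% of all genes. Neuronal markers had array means of 10.63 to 10.68 on stroke arrays and 10.73 to 10.79 on naive arrays labelled TNF knockout, which did not overlap, and of 10.60 to 10.65 on stroke arrays and 10.64 to 10.72 on naive arrays of C57BL/6. Under the knockout label the change was above 0 for 0 of 12 neuronal markers, against 49.3% of all genes, and 0 were called. At an unadjusted p under 0.05 there were 3 of them, against 8.39% of all genes. In C57BL/6 the change was above 0 for 5 of 12, against 48.3% of all genes, and 0 were called. There 1 had an unadjusted p under 0.05, against 17.1% of all genes. Pericyte and smooth muscle markers had array means of 6.22 to 6.26 on stroke arrays and 6.30 to 6.51 on naive arrays of the knockout label, also without overlap, and of 6.11 to 6.35 on stroke arrays and 6.25 to 6.48 on naive arrays of C57BL/6.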

How the data were processed

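Total RNA extracted from whole brain with Trizol was labelled with biotin, per the labels' protocols, and measured on 16 arrays (Affymetrix Mouse Gene ST). The deposited values are on a log2 scale, per probe set, and were normalised between arrays by the authors, as their medians of 6.01 to 6.05 show. GCOS, GCRMA, Partek and RMA are named, without versions or roles, per the submitters' processing notes. No probe-level signal was used here, so the precision rests on the number of arrays, 4 per group.

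Of 28944 probe sets, 21789 had 1 gene symbol in the platform annotation, 1621 had several and 5534 had none. The probe set with the highest mean was kept for each gene, which gave 19938 genes. In R 4.3.3, limma 3.58.1 fitted 1 mean per group to the 16 arrays together, with moderated variances (12 degrees of freedom from the residuals and 7.52 from the prior), after the code had been tested on simulated data. Two-sided p-values were adjusted over all genes of a comparison (Benjamini-Hochberg, threshold 0.05). Correlations of deviations from group means were tested over all 331776 orders within groups. Promoter windows came from RefSeq (GRCm38.p6) and were searched with Python 3.11.15.

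The 9 genes and the lists (receptor and chaperone machinery, glucocorticoid metabolism and transport, further induced genes, PPAR and FOXO targets, paralogs, partners and targets, and cell type markers) were chosen with earlier results of these data known. Named are all 9 genes, any listed gene past the threshold in a comparison, Nr3c1, Nr3c2, Hsd11b1, Fkbp4 and Tnf in any case, and the 5 genes most like the 9. Further induced genes below 0 in the averaged comparison were named after seeing the data. The alternatives were quantile normalization, median centring, a filter on dim genes, the mean of probe sets, every probe set tested, robust and trended variances, weights per array, a block for the replicate number, a term for the sample name prefix, a fit of only the groups compared and fits without each array. Those for listed genes were added after seeing the data.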

Additional observations from a re-analysis of the deposited data

Results flagged for a closer look

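In 2 of 36 groups of 4 arrays, 1 array stood apart from the other 3, where chance gives about 1 in 20. Pdk4 was at 6.28 on C57BL/6 stroke array 3, and the nearest of the other 3 was at 5.92, a gap of 0.857 of the range of the group. Errfi1 was at 8.60 on C57BL/6 naive array 4, with the nearest at 8.50, a gap of 0.909 of the range. Neither cause was tested.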

How the results depend on the processing

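No call of the 9 genes changed direction. In C57BL/6 the 2 calls after stroke became 1 with every probe set tested (Fkbp5 at adjusted p = 0.0651), a setting that also ended the averaged Plin4 call (0.0696), and 0 with only the groups compared (Fkbp5 at 0.149, Sult1a1 at 0.0729). Under the knockout label the 1 call became 0 with the sample name prefix as a term. Without 1 array the counts ran from 0 to 1 under the knockout label, 0 to 3 in C57BL/6 and 2 to 4 averaged over both labels, and stayed at 0 in the other comparisons. The 0 gene pairs stayed at 0 with quantile normalization, the mean of probe sets and deviations within prefixes. Calls over all genes were 128 under the knockout label (72 to 212 over the other settings, 69 to 145 without 1 array), 334 in C57BL/6 (98 to 559, 107 to 639), 559 averaged (332 to 768, 369 to 629), 77 between labels in naive brain (51 to 185, 23 to 138), 87 between labels after stroke (46 to 164, 47 to 120) and 0 for the difference (0 to 4, 0 to 3).

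The shared replicate numbers were not taken as pairs: arrays with the same number correlated at -0.07 to 0.34 in their deviations, and 7 of 16 arrays correlated best with their own number. With the replicate number as a block, 3 of the 9 genes were called in C57BL/6, 1 under the knockout label and 5 averaged, the addition being Errfi1 (adjusted p = 0.0215 in C57BL/6 and 0.0318 averaged). All-gene calls with the block were 559 in C57BL/6, 140 under the knockout label, 765 averaged, 141 and 120 between labels in naive brain and after stroke, and 1 for the difference.

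Values that changed sign were all uncalled, and the cause was not tested. With quantile normalization Plin4 and Zbtb16 between labels in naive brain were at 0.0154 and -0.0047, and the difference for Sgk1 was 0.0388. With array weights the difference for Tsc22d3 was 0.0398. With the prefix as a term Zbtb16 was at 0.0233 under the knockout label and Hsd11b1 at -0.0033 averaged. Without 1 array, the stroke change of Zbtb16 ran from -0.0667 to 0.0067 under the knockout label, -0.0817 to 0.0517 in C57BL/6 and -0.0533 to 0.0133 averaged, that of Fkbp4 from -0.0783 to 0.0183, of Hsd11b1 from -0.0254 to 0.0696 and of Nr3c2 from -0.0642 to 0.0175. Between labels in naive brain Sgk1 ran from -0.141 to 0.0425 and Tsc22d3 from -0.109 to 0.0242. Between labels after stroke Fkbp5 ran from -0.0342 to 0.159, Plin4 from -0.07 to 0.29, Sgk1 from -0.185 to 0.0258 and Zbtb16 from -0.0317 to 0.102. The difference ran from -0.168 to 0.0192 for Pdk4, -0.0275 to 0.332 for Plin4, -0.138 to 0.0783 for Sgk1 and -0.09 to 0.0567 for Tsc22d3. The averaged change of Errfi1 lay near the threshold and passed it in 2 of the 16 fits without 1 array. That of Sgk1 passed in 0 of those 16 fits (adjusted p = 0.0584 to 0.282, limma).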

Other observations

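Lists near the 9 genes held few calls. Of 16 measured PPAR and FOXO targets, Plin2, a lipid droplet coat protein related to Plin4, was the 1 gene higher after stroke, by 0.61 ± 0.11 log2 in C57BL/6 (adjusted p = 0.00517, limma) and by 0.46 ± 0.07 averaged over both labels (adjusted p = 0.00125). Plin2 is also the only one of 23 measured paralogs of the 9 genes called in a stroke comparison. Another paralog, the sulfotransferase Sult1b1, was at 2.21 on average on naive arrays labelled TNF knockout and at 2.62 on naive C57BL/6 arrays, near the low end of the values in the table. The change of -0.41 ± 0.07 (adjusted p = 0.0183) was called in 12 of the 16 fits without 1 array, and was lost without C57BL/6 naive arrays 1, 3 or 4 (adjusted p = 0.0521, 0.0611 and 0.0552) or naive array 2 of the knockout label (0.0840). Of 19 measured partners and targets of the 9 proteins, 0 were called after stroke in either label or averaged, and 3 had an unadjusted p under 0.05 in the averaged comparison, against 16.4% of all genes.

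After stroke, 1 of 11 microglial markers (Cd68 at -0.38, adjusted p = 0.0340, limma), 1 of 11 endothelial markers (Cldn5 at -0.535, adjusted p = 0.0396) and 1 of 11 oligodendrocyte markers (Cnp at -0.46, adjusted p = 0.00503) were lower on arrays labelled TNF knockout than on C57BL/6 arrays, where 0.436% of all genes were called. The other members of these lists were not called, but 0 of 11 oligodendrocyte markers had a value above 0, with a median of -0.345 against -0.0075 over all genes, and 8 had an unadjusted p under 0.05, against 11.3% of all genes. Of the endothelial markers 1 of 11 was above 0 (median -0.22) and 5 had an unadjusted p under 0.05, and of the microglial markers 1 of 11 was above 0 (median -0.24) and 4 did. The Cd68 call was lost in 6 and the Cldn5 call in 11 of the 16 fits without 1 array, with adjusted p up to 0.154 for Cd68 and 0.169 for Cldn5. Between labels in naive brain, 2 of 11 oligodendrocyte (median -0.14), 5 of 11 endothelial (-0.045) and 5 of 11 microglial markers (-0.01) were above 0. At an unadjusted p under 0.05 there were 4, 1 and 2, against 16.6% of all genes. Cnp was at -0.275 ± 0.08 there (adjusted p = 0.101, limma). The stroke changes of Cnp, Cd68 and Cldn5 differed between labels by -0.185, -0.49 and -0.40, all uncalled (adjusted p = 0.407 to 0.710).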
